A study of Nannochloropsis oceanica with 44 samples.

Results

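Cells of the marine alga Nannochloropsis oceanica that had been back in nitrogen for 24 h were compared here with cells that had been without it for 24 h. The strain was the wild type of CCMP1779, kept as shaken liquid cultures in continuous light. The 24 h N- group was washed and moved from complete F/2 medium to F/2 without nitrogen 24 h before harvest. The 24 h NR group was held in nitrogen-free medium for 72 h, harvested and returned to F/2 with nitrogen, and taken 24 h later. The groups therefore differ in their medium and also in their history, and these cannot be told apart at 1 time. They account for 8 of the 44 RNA-seq libraries in the labels, 4 libraries a group, and were chosen by their labels. The labels' protocols speak of 2 biological replicates per time point and do not say whether different times came from the same cultures.

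The deposited tables cover 2489 genes, which the authors had called for a difference between deprivation and resupply or its change with time and had split into 4 clusters by the shape of their profiles. Each gene has 1 value per group on what was inferred to be a log2 scale, so a difference of 1 is 2-fold, and values run from 1.46 to 19.5. No error, replicate value or library depth stands behind them, so no difference below has a test, and none can be set against the variation of cultures. Genes are called higher or lower where 24 h NR minus 24 h N- is past 1 in size. How the values were scaled is not stated in the sources used, and no amount of RNA per cell is given. They are therefore read as relative levels and not as amounts per cell. Genes carry the identifiers of an annotation pipeline and no names, none of the 2489 was found among the 160 organelle genes of the reference table, and no function or sequence is given for them.

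Nitrogen is needed for amino acids, nucleotides and chlorophyll. When it runs out, Nannochloropsis stops dividing, reduces its photosynthetic apparatus and stores carbon as triacylglycerol oil. On resupply the cells take up and assimilate nitrogen, use the stored oil, rebuild their chloroplasts and return to growth. A comparison at a matched hour asks how far the transcripts of recovering cells lie from those of cells as long into deprivation.

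As deposited, the balance at 24 h lay on the side of resupply. Of the 2489 genes, 1094 (44.0%) were higher in NR and 262 (10.5%) were lower, and 1133 (45.5%) lay within 2-fold. The median gene was 0.84 higher in NR, with quartiles over genes at -0.11 and 1.48. Most differences were moderate: 257 genes were more than 4-fold higher and 83 more than 4-fold lower, and past 8-fold the order turned, with 24 higher and 32 lower. Many genes stood close to the limit, with 94 in the first 0.1 beyond 1 and 105 in the last 0.1 short of it.

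Both the size and the direction of this balance depend on the scaling. The median of the column for 24 h NR was 0.55 above that for 24 h N-. With each column centred on its median, 554 genes (22.3%) were higher and 452 (18.2%) lower. Centring on column means gave 498 and 478, and the mean of the cluster medians as shift gave 749 and 374. With the median difference as shift, a scaling chosen after seeing the data, the balance turned, to 358 higher and 583 lower. Called genes are not neutral, so neither scale is known to be right, and values below are as deposited unless they are called centred.

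**Figure D1:**
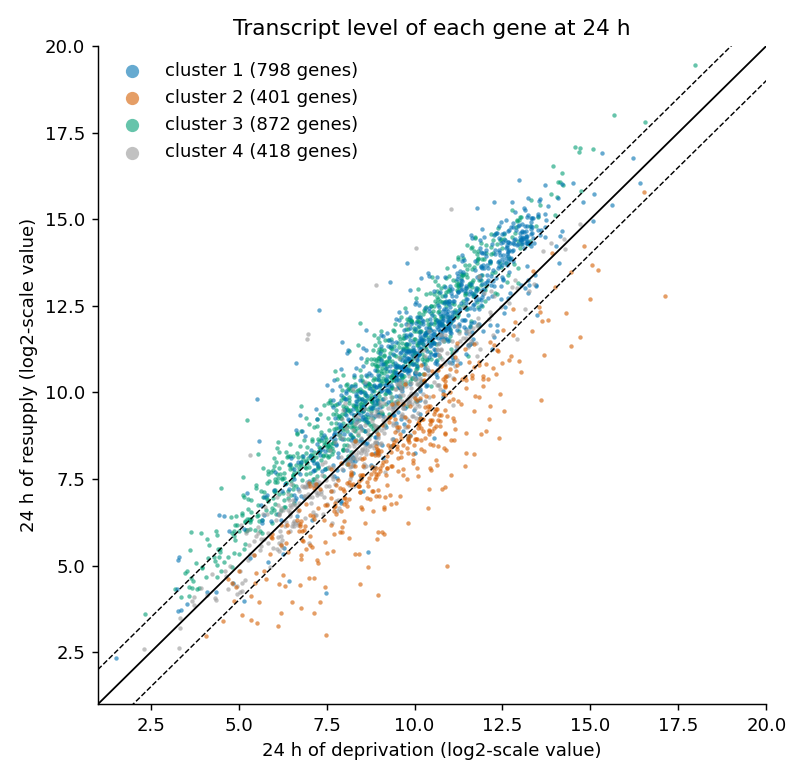
Each point is 1 gene, with its log2-scale value at 24 h of deprivation on the x axis and at 24 h of resupply on the y axis, coloured by the authors' cluster. The solid line marks equal values and the dashed lines 2-fold; 1094 genes lie above the upper dashed line and 262 below the lower one.

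Nearly all genes higher in NR came from clusters 3 and 1 and nearly all lower ones from cluster 2. Cluster 3 gave 598 of the 1094 higher genes (54.7%), cluster 1 gave 475 (43.4%) and cluster 4 gave 21, while cluster 2 gave 0. Cluster 2 gave 241 of the 262 lower genes (92.0%), and clusters 1 and 4 gave 13 and 8. The clusters were made from these same profiles, so this describes them and is not a separate finding.

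Cluster 3 had 598 of its 872 genes (68.6%) higher in NR and 0 lower. Its median difference was 1.30 (quartiles 0.89 and 1.83), or 2.45-fold. All but 9 of its genes had a value above 0. Centred, 318 were higher and 1 lower. Cluster 1 had 475 of 798 (59.5%) on the higher side and 13 on the lower, around a median of 1.16, and 226 and 35 after centring. The opposite held for cluster 2, where NR was lower in 241 of 401 genes (60.1%) and higher in 0. There the median was -1.17 (quartiles -1.81 and -0.70), and centring raised the number of lower genes to 342. Cluster 2 also held 30 of the 32 genes that were more than 8-fold lower.

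Cluster 4 had the smallest differences as deposited. Of its 418 genes, 389 (93.1%) lay within 2-fold at 24 h and 278 within 0.5 on the log2 scale, with a median difference of 0.07. The direction of that median is not settled, because it became -0.48 after centring, with 10 genes higher and 74 lower.

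**Figure D2:**
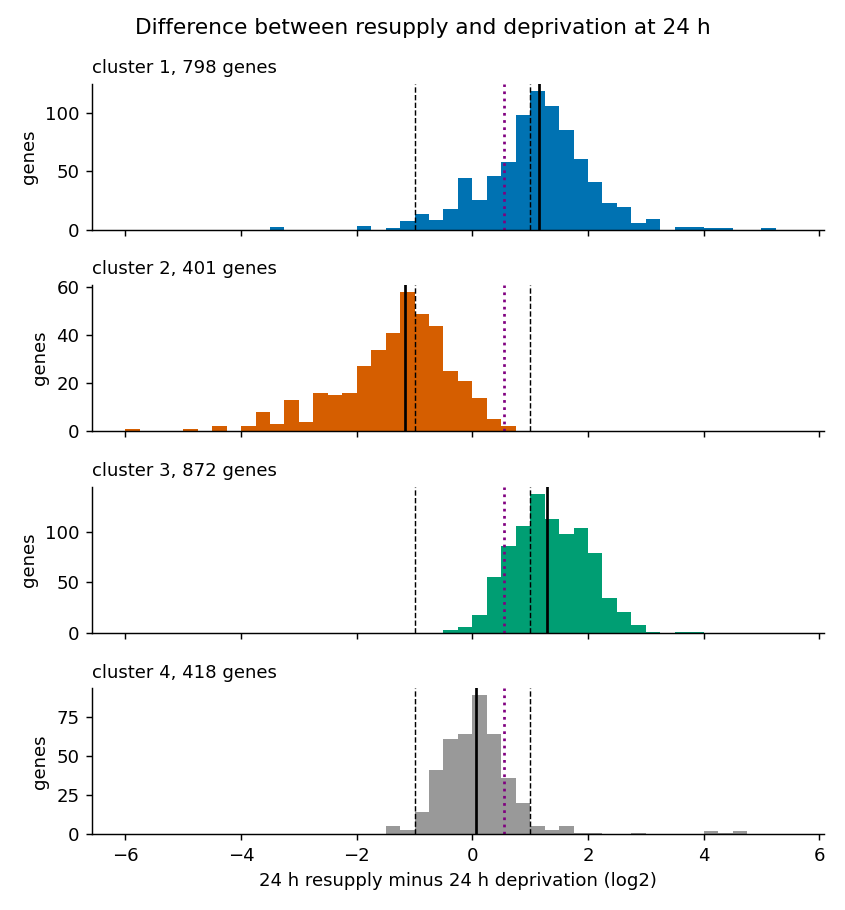
Number of genes (y axis) by the log2 difference of 24 h NR minus 24 h N- (x axis, bins of 0.25), 1 panel per cluster. The black line is the cluster median (1.16, -1.17, 1.30 and 0.07 for clusters 1 to 4), dashed lines mark 2-fold and the dotted line marks the shift of 0.55 between the column medians.

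The genes higher at 24 h in clusters 1 and 3 lay on opposite sides at 12 h. The other matched hours share no column with the comparison at 24 h. Over all 2489 genes, NR was higher in 30.0% and lower in 59.0% at 6 h, and higher in 31.3% and lower in 62.8% at 12 h. Later it was higher in 47.9% and lower in 8.40% at 48 h, and higher in 47.2% and lower in 7.87% at 72 h. Of the 475 cluster 1 genes, 442 were higher in NR at 6 h and 474 at 12 h. This was so in most of the cluster, with 742 of its 798 genes higher at 6 h and 762 at 12 h. Their median difference went from 2.56 at 6 h and 2.34 at 12 h to 1.53 at 24 h, 0.96 at 48 h and 0.07 at 72 h. By 48 h 226 of them were still past 2-fold and by 72 h 75 were. In levels, their median in NR stepped from 12.92 at 6 h to 12.22 at 24 h and 10.87 at 72 h, while their 5 medians in deprivation stayed between 10.48 and 10.76. After centring, the 226 genes then chosen had median differences of 3.77, 4.04, 1.41, 0.60 and -0.50 from 6 h to 72 h. Their centred median in deprivation was 1.25 at 6 h, 0.98 at 12 h and 2.09 at 72 h. The steady level in deprivation therefore depends on the scale.

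The 598 cluster 3 genes were on the other side at 12 h. Their median difference was -1.45 at 6 h and -2.85 at 12 h, then 1.59 at 24 h, 1.43 at 48 h and 2.30 at 72 h. At 12 h 574 of them were lower in NR, and at 72 h 560 were higher. This was so in most of the cluster, with 841 of its 872 genes lower at 12 h and 750 higher at 72 h. As deposited, 370 of the 598 genes (61.9%) had the most frequent order. It was lower at 6 and 12 h and higher at 24, 48 and 72 h. Of the 318 genes chosen after centring, 27 (8.49%) had that order, and the most frequent one, in 114 (35.8%), was lower at 12 h, higher at 24 and 72 h and within 2-fold at 6 and 48 h. As deposited, the median level of the 598 genes in NR was 6.76 at 12 h, 10.96 at 24 h and 9.83 at 48 h, against 9.22 at 24 h N-. Of the 318 centred genes, 30 were lower at 6 h, 208 at 12 h and 254 higher at 72 h, so the early deficit at 6 h depends on the scale. Over all centred genes 29.3% were lower at 6 h, 32.5% were lower at 12 h and 27.3% were higher at 72 h.

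The 241 cluster 2 genes ran opposite to cluster 1. Their median difference was -2.56 at 6 h, -2.19 at 12 h, -1.63 at 24 h, -1.14 at 48 h and -0.76 at 72 h. At 6 h 210 were lower, at 48 h 140 were and at 72 h 90 were. In the whole cluster 357 of 401 genes were lower at 6 h, 167 at 48 h and 106 at 72 h. As deposited, the median level of the 241 genes in deprivation stayed between 9.66 and 9.82. In NR it was 7.15 at 6 h, 7.91 at 24 h and 9.17 at 72 h. In 67 of the 241 (27.8%) NR was lower at each of the 5 hours. After centring, 342 genes were chosen, with 206 lower at 6 h, 118 at 12 h, 255 at 48 h and 250 at 72 h, so the narrowing of this gap is also a matter of scale. Over all centred genes 18.3% were lower at 48 h and 29.7% at 72 h. The centred median of the 342 genes in deprivation was 0.03 at 6 h, -0.06 at 12 h and 0.83 at 72 h.

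As deposited, the median of cluster 4 was near 0 at 24 h. The 389 genes within 2-fold there had a median difference of -2.56 at 6 h and -1.74 at 12 h, and of 1.79 at 48 h and 1.60 at 72 h. In 237 of them (60.9%) NR was lower at 6 and 12 h and higher at 48 and 72 h. After centring, 51 of the 334 genes then within 2-fold (15.3%) had that order. The centred median of the whole cluster was -1.41 at 6 h, -0.28 at 12 h, -0.48 at 24 h, 1.08 at 48 h and 0.73 at 72 h. As deposited, the median level of the 389 genes rested at 8.71 at 24 h N- and 8.68 at 24 h NR.

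**Figure D3:**
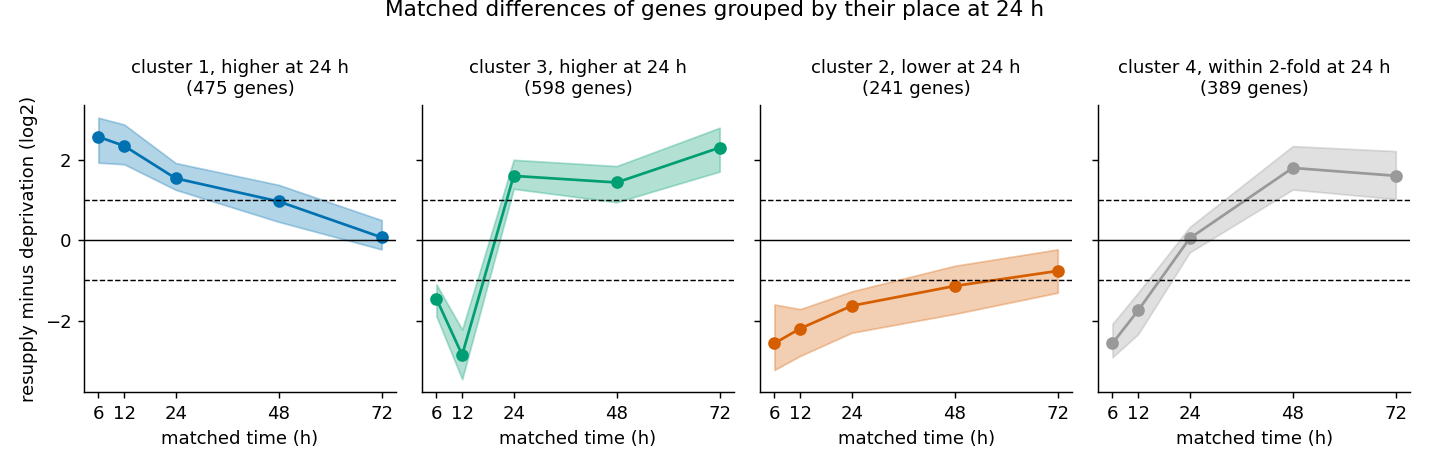
Median log2 difference of NR minus N- (points) with quartiles over genes (bands) at the 5 matched hours, as deposited, for genes grouped by cluster and by their place at 24 h. Cluster 1 genes decline from 2.56 to 0.07, cluster 3 genes cross from -2.85 at 12 h to 1.59 at 24 h, cluster 2 genes approach 0 from -2.56, and cluster 4 genes are near 0 at 24 h on this scale.

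In clusters 2 and 3 the genes within 2-fold at 24 h had medians at 12 h close to those of the genes past it. In cluster 2 the 160 genes within 2-fold at 24 h had a median of -2.11 at 12 h, beside -2.19 for the 241 lower genes. In cluster 3 the 274 genes within 2-fold had a median of -2.97 at 12 h, beside -2.85 for the 598 higher genes. In cluster 1 the gap was wider, 1.62 for the 310 genes within 2-fold against 2.34 for the 475 higher ones. Of the 762 cluster 1 genes that were higher at 12 h, 474 (62.2%) were higher at 24 h, beside 59.5% of the whole cluster. Of the 365 cluster 2 genes that were lower at 12 h, 212 (58.1%) were lower at 24 h, beside 60.1% of the cluster.

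As deposited, the level at 24 h NR lay outside the range of the 5 deprivation values for most of the called genes. That range includes 24 h N-, against which the genes were called, so this partly follows from the call. In 702 of the 1094 higher genes (64.2%) the level at 24 h NR was more than 2-fold above the highest deprivation value. These were 28.2% of all 2489 genes, with 382 in cluster 1 and 318 in cluster 3. In 175 of the 262 lower genes (66.8%) it was more than 2-fold below the lowest. They were 7.03% of all genes, and 172 of them belonged to cluster 2. In cluster 4, by contrast, 378 of 418 genes (90.4%) lay inside their deprivation range as deposited, and 233 (55.7%) did after centring, with 180 below the lowest value. With all columns centred, 240 of the 554 higher genes (43.3%) were above by more than 2-fold, and only 38 of the 240 were cluster 1 genes. Of the 452 lower genes, 326 (72.1%) were then below by more than 2-fold.

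Measured from 72 h N-, the state from which resupply began, the same genes look different, and the values share the 24 h NR column. For the 598 cluster 3 genes the median of 24 h NR minus 72 h N- was 3.37, beside 1.59 against 24 h N-, because their deprivation level was 1.70 lower at 72 h than at 24 h. For the 475 cluster 1 genes it was 1.54, beside 1.53, and for the 241 cluster 2 genes it was -1.77, beside -1.63. The cluster 4 genes within 2-fold at 24 h stood 1.46 above 72 h N-. These values depend on the scale. After centring, the 226 cluster 1 genes were at 0.71, beside 1.41, the 342 cluster 2 genes at -2.74, beside -1.89, and the 318 cluster 3 genes at 2.33, beside 1.42. The 334 cluster 4 genes then within 2-fold were at 0.45.

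The genes furthest apart at 24 h are given with their values, at most a pair in each direction per cluster. The cluster 2 gene augustus_masked-nanno_494-abinit-gene-0.1 had the largest difference of all, at 10.91 in 24 h N- and 5.00 in 24 h NR, 60.3-fold lower (-5.91, or -6.47 centred). It stood between 10.67 and 11.50 at all 5 times of deprivation. After resupply it was at 5.29, 4.93, 5.00, 5.65 and 7.76 from 6 h to 72 h, so the conditions did not overlap at any hour.

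The gene maker-nanno_237-augustus-gene-0.9, also of cluster 2, was at 8.96 in 24 h N- and 4.14 in 24 h NR, 28.1-fold lower. Its deprivation values lay between 8.41 and 8.99, and its resupply values were 4.48, 4.31, 4.14, 4.81 and 5.63. In both genes the low level reached within 6 h of resupply was held through 24 h, and the values at 48 h and 72 h were higher.

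Upward, the largest difference was that of the cluster 1 gene maker-nanno_758-snap-gene-0.10, at 7.30 in 24 h N- and 12.39 in 24 h NR, 34.1-fold higher. This gene had been high early in deprivation, with 11.15 at 6 h, 8.55 at 12 h, 7.02 at 48 h and 7.28 at 72 h. In resupply it was at 9.79, 12.83, 12.39, 13.47 and 12.16. Its matched difference was -1.36 at 6 h and 5.09 at 24 h, so it did not follow the median of its cluster. The cluster 1 gene augustus_masked-nanno_5387-abinit-gene-0.0 was at 5.54 and 9.81, 19.4-fold higher, and was higher in NR by 2.95 to 4.28 at all 5 hours.

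A pair of cluster 4 genes resembled the first of these. The gene augustus_masked-nanno_302-abinit-gene-0.5 was at 6.99 in 24 h N- and 11.67 in 24 h NR, 25.7-fold higher, after 9.90 at 6 h N- and 8.38 at 6 h NR. The gene snap_masked-nanno_712-abinit-gene-0.3 was at 6.93 and 11.54, 24.4-fold higher, after 11.46 at 6 h N- and 8.35 at 6 h NR. In both, NR was lower than N- at 6 h and higher from 12 h on.

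Of the 8 genes more than 16-fold higher at 24 h, 5 were from cluster 4, most of whose genes lay within 2-fold at that hour, and 3 from cluster 1. In deprivation each of the 8 had a lower value at 24 h than at 6 h, by a median of 3.16 and by 0.74 at the least. Their median level in deprivation was 11.31 at 6 h and 7.14 at 24 h, and in resupply it was 9.55 at 6 h and 12.03 at 24 h. The 8 were chosen for their gap to 24 h N-, so a low value there is partly built into the choice. Beside them, the median of 24 h N- minus 6 h N- was 0.003 over all genes, 0.32 in cluster 1 and -0.59 in cluster 4. The 4 genes more than 16-fold lower were all from cluster 2, and their level in deprivation differed by at most 0.55 between 6 h and 24 h. They include augustus_masked-nanno_494-abinit-gene-0.1 and another model of the same contig, at 7.47 in 24 h N- and 3.00 in 24 h NR, 22.2-fold lower. Across all 10 values these models correlated with a Pearson r of 0.995. Whether they overlap, and so count 1 locus more than once, was not tested.

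In cluster 3 the largest differences were those of maker-nanno_1060-augustus-gene-0.15 and augustus_masked-nanno_613-abinit-gene-0.0. The first was at 5.23 in 24 h N- and 9.20 in 24 h NR, 15.6-fold higher. It was at 8.53 at 12 h N-, and its 12 h NR value was 4.20. The second was at 8.45 and 12.00, 11.7-fold higher, and it passed from 6.26 at 12 h NR through 12.00 at 24 h to 8.12 at 72 h. Its 24 h value was 2.79 above its highest deprivation value, while the first gene's was 0.67 above.

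As deposited, the lower genes of clusters 1 and 4 were few, 13 and 8. After centring they numbered 35 and 74, so this depends on the scale. In the whole of cluster 1, 742 of 798 genes were higher in NR at 6 h and 762 at 12 h. Among its 13 genes that were lower at 24 h, all 13 were higher at 6 h and 7 were at 12 h. The gene snap_masked-nanno_652-abinit-gene-0.5 was the furthest, at 7.50 in 24 h N- and 4.22 in 24 h NR, 9.68-fold lower, after 8.06 at 6 h NR. Next to it came snap_masked-nanno_652-abinit-gene-0.10 of the same contig, at 8.67 and 5.41. Across all 10 values the pair correlated with a Pearson r of 1.00 (rounded), and whether the models overlap was not tested. The cluster 4 genes snap_masked-nanno_1084-abinit-gene-0.13 (11.11 and 9.64) and snap_masked-nanno_59-abinit-gene-0.6 (9.15 and 7.69) were 2.75-fold and 2.74-fold lower. Both were higher in NR at 72 h, by 1.20 and 2.74.

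**Figure D4:**
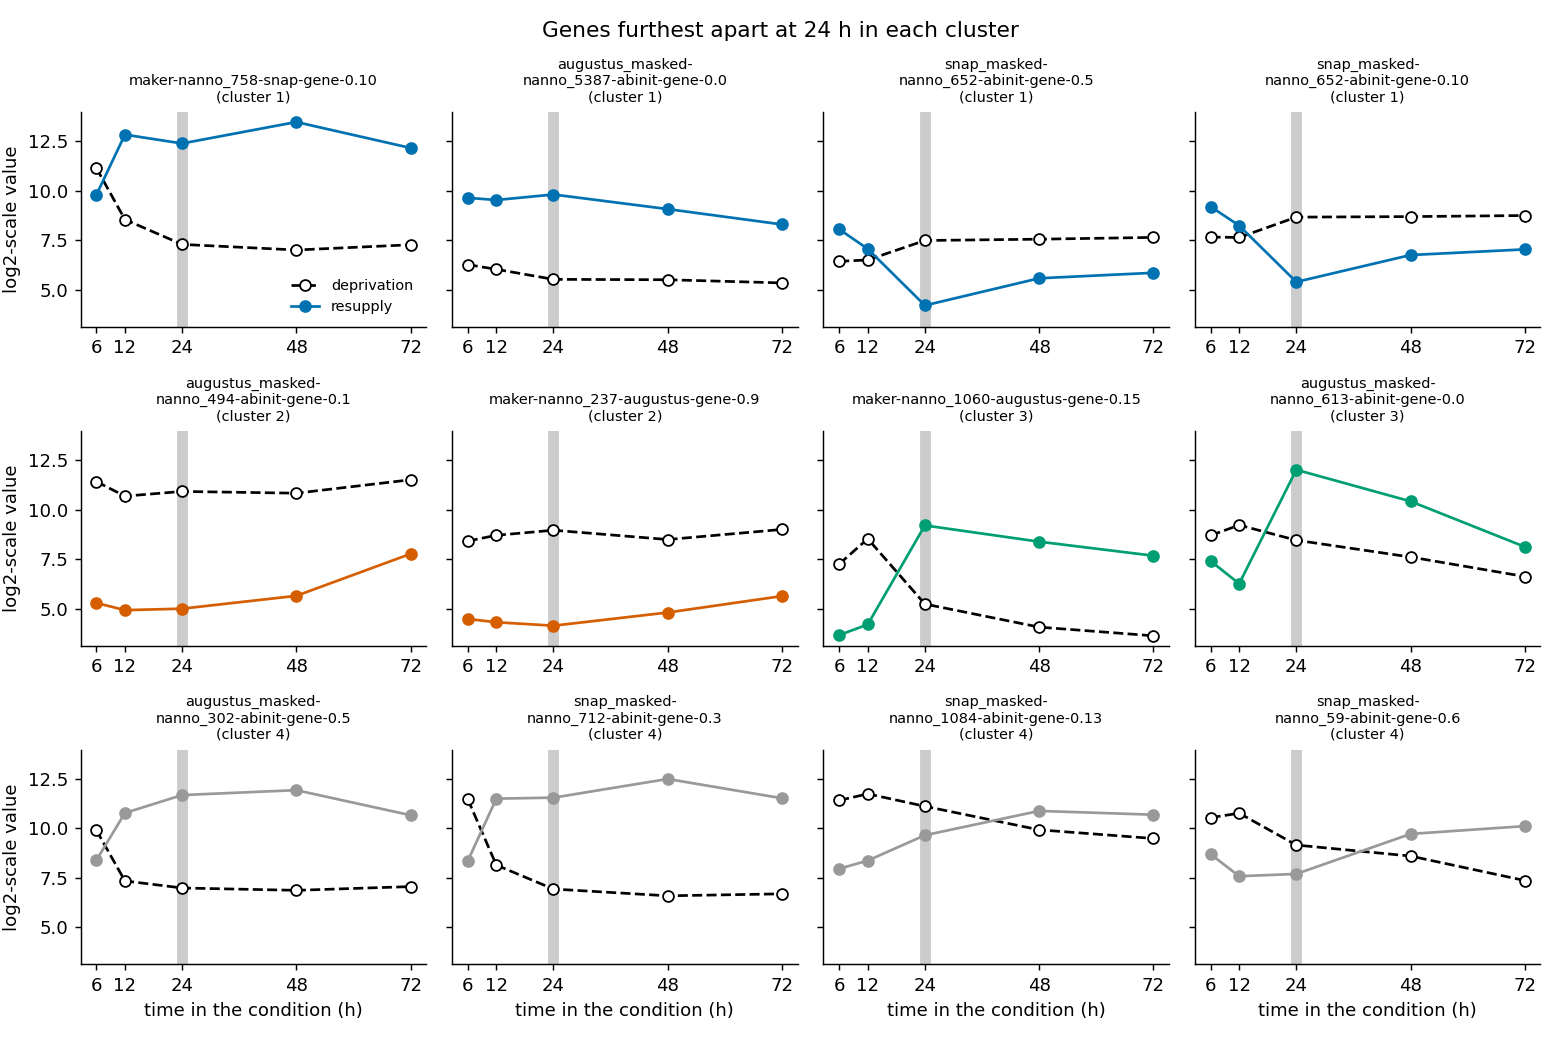
Log2-scale values of the 12 genes named by size, with time in the condition on the x axis; open points with dashed lines are deprivation, filled points with solid lines resupply, and the grey band marks 24 h. The cluster 2 gene augustus_masked-nanno_494-abinit-gene-0.1 is at 10.91 and 5.00 there, and the cluster 1 gene maker-nanno_758-snap-gene-0.10 at 7.30 and 12.39.

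Strongly expressed genes were more often higher in NR. With the 2489 genes split into 5 equal classes by the mean of their 10 values, 155 of 498 genes (31.1%) were higher in the lowest class and 334 of 498 (67.1%) in the highest. The shares lower were 10.6% and 6.22%. The highest class was made up of cluster 1 genes to 65.1%, against 10.6% in the lowest. Within clusters the order remained: 34.0% to 74.4% of cluster 1 genes were higher from the lowest to the highest class, and 59.0% to 88.9% of cluster 3 genes. In cluster 2 the share lower was 53.8% in the lowest class and 70.7% in the highest, with 58.1% in the class before it. The interquartile range of the differences was 1.38, 1.52, 1.74, 1.46 and 1.17 from the lowest to the highest class. After centring, 11.6% were higher and 21.3% lower in the lowest class, against 38.2% and 9.24% in the highest. The value at 24 h NR enters both the mean level and the difference, and its part in this order was not tested.

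**Figure D5:**
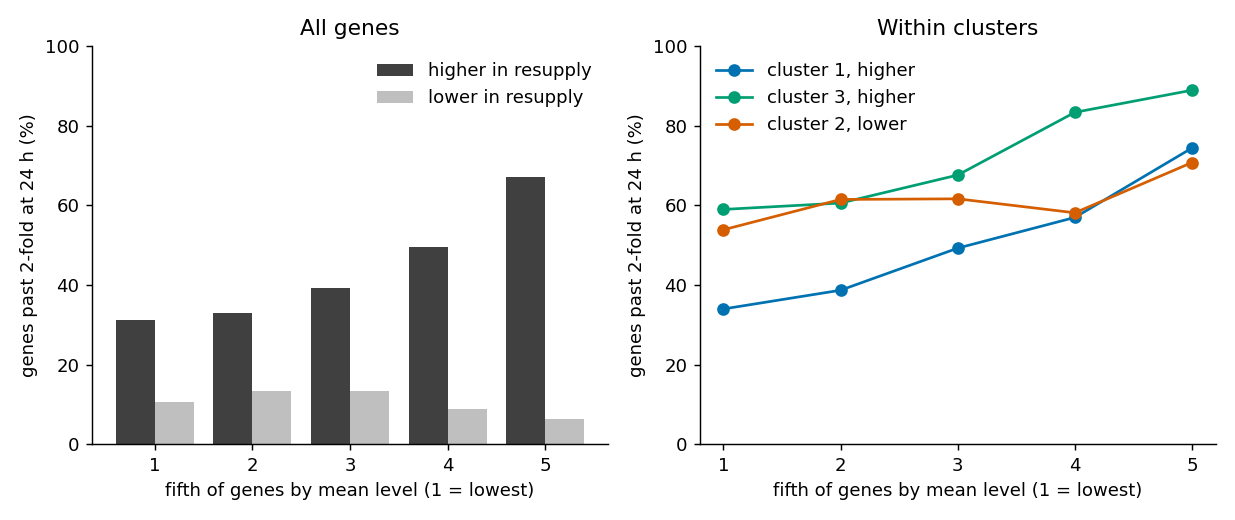
Left, percentage of genes past 2-fold at 24 h (y axis, higher in dark and lower in light grey) by class of mean level (x axis, 1 lowest and 5 highest). Right, the same within clusters; the share higher goes from 34.0% to 74.4% in cluster 1 and from 59.0% to 88.9% in cluster 3.

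The kind of gene model went with the level. Models were split by identifier only: those starting with maker- were read as evidence-based and the others as predictions. Whether single models have evidence was not checked. Of the 866 evidence-based models, 431 (49.8%) were higher and 79 (9.12%) lower. Of the 1623 predictions, 663 (40.9%) were higher and 183 (11.3%) lower. The evidence-based models had a median mean level of 10.31, against 8.67, and 43.0% of them belonged to cluster 1, against 26.2%. Within cluster 3 the shares higher were 73.1% and 66.9%, and within cluster 1 they were 66.4% and 53.5%. After centring, 24.9% of the evidence-based models were higher and 16.2% lower, against 20.8% and 19.2% of the predictions. The part of level and cluster in the difference between the kinds was not tested.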

How the data were processed

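Reads of 50 bases from 1 end were, per the labels' protocols, trimmed with Trimmomatic 0.32, aligned to the CCMP1779 assembly with STAR 2.3.0e (unique mapping only) and counted per gene over exons with HTSeq 0.6.1. Unique mapping undercounts near-identical genes. Per the labels' protocols, the authors called genes with DESeq2 (log2 fold change over 1, adjusted p under 0.01) and split them by k-means into 4 clusters. The deposited values are on a log2 scale as inferred from their range. The transformation, the scaling and how the authors joined the 4 libraries of a group are not stated in the sources used, and a transformation that shrinks low counts would reduce the differences of weak genes. The tables have 10 of the 11 groups, and 0 h was not analysed here.

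Columns were matched to groups by name, and 24 h N- was subtracted from 24 h NR for every gene, with Python 3.11.15, numpy 2.4.6 and pandas 2.3.3. Calls use a limit of 1. The code of the call was checked on simulated columns in which few genes changed, all well past the limit. That check says nothing about the choice of scaling or about genes near the limit. Read depth is unknown. The tests foreseen for replicate values could not be run. In each cluster at most 2 genes per direction are named, by the largest difference past 1. The comparison, lists and clusters were chosen with earlier results of these data known. Alternatives were 4 other scalings, limits of 1.5-fold and 4-fold, and only genes with a value of at least 6; the scaling by the median difference was chosen after seeing the data. Lists of functional genes could not be applied, since identifiers have no names.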

Additional observations from a re-analysis of the deposited data

Results flagged for a closer look

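Some genes were past 2-fold in opposite directions at 24 h and at another matched hour, so that the contrast of NR with N- turned between times. These differences were not tested, and the genes were called by the authors partly for a change of the contrast with time. Set against 6 h, 493 genes were lower in NR then and higher at 24 h, 473 of them in cluster 3. The other way went 17 genes, 13 of them in cluster 1. Set against 12 h, the numbers were 583 and 12. The 493 and 583 were 45.1% and 53.3% of the 1094 higher genes, below the 59.0% and 62.8% of all 2489 genes lower then. The 17 and 12 were 6.49% and 4.58% of the 262 lower genes, beside 30.0% and 31.3% of all genes higher then. In cluster 3, 473 of the 598 higher genes (79.1%) were lower at 6 h, beside 707 of its 872 genes. Looking ahead, 4 genes, all of cluster 4, were lower in NR at 24 h and higher at 48 h, and 0 had the reverse order. By 72 h, 15 genes that were lower at 24 h were higher, 10 of cluster 2 and 5 of cluster 4, and 8 genes of cluster 1 that were higher at 24 h were lower. With centred columns the counts were 36 and 52 for 6 h, 209 and 64 for 12 h, 18 for 48 h, and 14 and 44 for 72 h.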

How the results depend on the processing

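No paired analysis was possible because the tables hold 1 value per time point, and for the same reason leaving out a replicate was not run. Scaling and the limit moved most counts, while the direction of clusters 1, 2 and 3 stayed. Each of the 12 named genes kept its direction and stayed past 1 under the 3 planned scalings, but their choice by size fixed this beforehand. The shifts taken off were 0.55, 0.63 and 0.34, against at least 3.55 in the named higher genes, and they move lower genes further down. Centring on column medians gave 554 higher and 452 lower genes and an overall median of 0.29, and on column means 498 and 478, and 0.21. The mean of the cluster medians as shift gave a median of 0.50. With the median difference as shift 358 genes were higher and 583 lower, so the balance of all genes turned. At 1.5-fold 401 genes were lower, and at 4-fold 257 were higher and 83 lower. Genes with a value of at least 6 had a median of 0.89.

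By cluster, the scalings by column medians, column means, mean of cluster medians and median difference are given in that order. Cluster 1 had 226, 198, 309 and 140 genes higher, 35, 41, 28 and 69 lower, and medians of 0.60, 0.53, 0.82 and 0.32. Cluster 2 had medians of -1.73, -1.80, -1.51 and -2.01, and 367 genes lower under the last. Cluster 3 had 318 and 290 higher under the first pair and 211 under the last, medians of 0.74, 0.67, 0.96 and 0.45, and 1, 1 and 4 lower in the same order. The median of cluster 4 reversed, to -0.48, -0.56, -0.27 and -0.77, with 74, 85, 35 and 143 genes lower, and 10, 10 and 7 higher under the first pair and the last. At 1.5-fold, cluster 1 had 33 genes lower, cluster 2 had 1 higher, and cluster 4 had 64 higher and 47 lower. At 4-fold, cluster 1 had 105 higher and 2 lower, cluster 2 had 81 lower, cluster 3 had 145 higher, and cluster 4 had 7 higher and 0 lower. Genes with a value of at least 6 gave medians of 1.17, -1.20, 1.35 and 0.078 for clusters 1 to 4.

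With centred columns, the 226 cluster 1 genes higher at 24 h were higher at 6, 12, 48 and 72 h in 222, 226, 72 and 25 cases. In the whole cluster 794, 798, 75 and 25 of 798 genes were, and over all 2489 genes 828, 846, 542 and 680. Of the 318 cluster 3 genes higher at 24 h, 30 and 208 were lower at 6 and 12 h and 89 and 254 higher at 48 and 72 h. In that whole cluster 198 and 588 of 872 genes were lower and 241 and 488 higher at these hours. Of the 342 cluster 2 genes lower at 24 h, 118, 255 and 250 were lower at 12, 48 and 72 h. In that whole cluster 134, 282 and 272 of 401 genes were. More than 2-fold outside the deprivation range stood 240 genes above and 326 below. Evidence-based models were higher in 24.9% and lower in 16.2%, predictions in 20.8% and 19.2%, the lowest level class in 11.6% and 21.3%, and the highest in 38.2% and 9.24%. Same-contig pairs in the same direction numbered 332 of 623 (53.3%), beside 50.5% among all pairs of genes past 2-fold. Each scaling takes 1 shift per column, the same for every gene, so these changes follow from its construction.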

Other observations

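At 24 h NR 708 of the 2489 genes (28.4%) had the highest of their 10 values, and 662 of these were cluster 3 genes, from which that cluster's shape is made. The lowest value fell there in 68 genes, 40 of them in cluster 2 and 27 in cluster 1. After centring these were 504 and 388 genes, with 233 of the latter in cluster 2 and 101 in cluster 4.

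Pairs of genes on the same contig were compared in the direction of their difference. The 2489 genes lay on 1215 contigs, of which 483 held several. Among the 3879 pairs of genes on 1 contig, both were past 2-fold at 24 h in 1206, in the same direction in 848 (70.3%) and in opposite directions in 358. Among all pairs of genes past 2-fold, on any contig, 68.8% had the same direction.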
